A study of Mus musculus with 10 samples.

Results

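The 8 genes followed here mark Cajal-Retzius cells and were measured in the dorsal telencephalon of mouse embryos at E14.5, with and without Dot1l. They were Reln, Trp73, Lhx1, Lhx5, Calb2, Ebf2, Ebf3 and Nhlh2, taken by name as known markers of these cells with earlier results of these data known, and they made up 8 of the 43629 genes listed. Total RNA was sequenced from 10 C57BL/6 samples. The 5 controls carried no Cre and had 1 floxed and 1 wild-type Dot1l allele (Dot1l f/+). The 5 Dot1l-cKO samples carried 1 Cre allele and were Dot1l f/f, which removes DOT1L, an enzyme that methylates histone H3, from cells of the forebrain. Cre was present in Dot1l-cKO only, so the loss of Dot1l and the presence of the Cre allele cannot be told apart. Cre-carrying embryos with an intact Dot1l allele were not analysed here.

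Cajal-Retzius cells are among the first neurons of the cerebral cortex. They arise at the edges of the cortical sheet, in the cortical hem, the septum, the ventral pallium and the thalamic eminence, and spread beneath the meninges into the marginal zone. There they secrete reelin, which acts through lipoprotein receptors on migrating neurons and is needed for the layering of the cortex. Inside the cortical sheet, Lhx2 is known to keep progenitors from taking the hem or Cajal-Retzius fate.

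The 8 genes were all higher on average in Dot1l-cKO, and 5 of them were DE. Log2 fold changes above 0 were found in 48.8% of all genes tested. Calb2 rose 2.64-fold and Ebf2 rose 2.06-fold, while Lhx5, Ebf3 and Nhlh2 rose with log2 fold changes of 0.82, 0.80 and 0.72. Reln, Trp73 and Lhx1 had log2 fold changes of 0.68, 0.52 and 0.47 and did not pass the test, though Reln passed it by DESeq2 and with the replicate number as a block. DE means an adjusted p under 0.05 in edgeR's quasi-likelihood test with Benjamini-Hochberg adjustment over all 17039 genes tested, of which 5.67% were called increased and 1.44% decreased (7.11% in all). Levels are given as CPM, counts scaled to a library total of 1e+06. The median log2 fold change was 0.76 over the 8 genes and -0.01 over all genes tested. In bulk tissue, more cells of a type and more RNA per cell cannot be told apart.

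The 4 samples with the number 57 in the headers of the normalised tables, replicates 2 and 3 of both groups, had 0.0471% to 0.492% of their counts in mitochondrial rRNA genes, against 5.79% to 10.9% in the other 6, so values are also given within each set. Control replicate 1 stood apart in carrying transcripts of the diencephalon, the brain region that borders the hem: Gbx2 reached 2.03 and Shox2 3.38 CPM there, against at most 0.09 CPM for Gbx2 and 0.10 CPM for Shox2 in the other 9 samples. The targeted gene did not separate the groups when all its exons were summed, with Dot1l at 37.3 ± 4.04 CPM in control and 39.4 ± 11.7 CPM in Dot1l-cKO (SD, 5 samples per group; edgeR adjusted p = 0.864). Dot1l-cKO replicate 2 alone was below every control, at 20.1 CPM against 31.4 to 41.5 CPM in control. The other Dot1l-cKO samples were at 39.6 to 51.7 CPM. A count over the whole gene does not single out the exons that Cre removes. Total counts were 54202349 to 66556034 per sample.

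Each gene was counted without reads of a same-strand neighbour, since none of the 8 shares exon bases with another gene on its strand. Promoter sequence, 250 bases before to 50 bases after the transcription start, was found in RefSeq (GRCm38.p6) for 5 of the 8. The promoters of Nhlh2 and Ebf3, which were DE, and of Reln, the most abundant of the 8, are shown because the transcription factors among the 8 include an E-box binding protein (NHLH2) and EBF proteins. Capitals mark matches to the E-box CANNTG, whose letters read the same on both strands. Nhlh2 lies at chr3:102009895-102010194 on the plus strand, Ebf3 at chr7:137314396-137314695 on the minus strand and Reln at chr5:22344656-22344955 on the minus strand, and each is written 5′ to 3′ on its own strand.
Nhlh2: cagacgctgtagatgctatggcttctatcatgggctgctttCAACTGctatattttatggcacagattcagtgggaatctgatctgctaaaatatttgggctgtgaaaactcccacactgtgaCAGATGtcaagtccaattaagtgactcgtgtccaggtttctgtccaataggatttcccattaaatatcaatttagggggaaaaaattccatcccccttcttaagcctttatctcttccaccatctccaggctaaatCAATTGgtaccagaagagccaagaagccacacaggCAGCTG
Ebf3: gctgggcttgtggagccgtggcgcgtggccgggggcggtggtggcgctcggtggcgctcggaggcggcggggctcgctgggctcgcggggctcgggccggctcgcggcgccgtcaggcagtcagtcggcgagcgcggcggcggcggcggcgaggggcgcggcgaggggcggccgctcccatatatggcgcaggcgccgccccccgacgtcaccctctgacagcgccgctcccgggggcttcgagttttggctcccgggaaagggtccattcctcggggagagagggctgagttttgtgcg
Reln: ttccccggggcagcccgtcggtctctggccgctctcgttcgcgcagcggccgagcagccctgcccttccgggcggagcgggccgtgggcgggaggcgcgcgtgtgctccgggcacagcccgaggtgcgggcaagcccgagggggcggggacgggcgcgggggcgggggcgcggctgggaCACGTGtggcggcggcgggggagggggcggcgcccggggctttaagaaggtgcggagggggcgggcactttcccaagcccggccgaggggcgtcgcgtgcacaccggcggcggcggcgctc

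These 3 promoters differed in composition and in motifs. The Nhlh2 promoter held 4 E-boxes, 1 of them the form CAGCTG, in a sequence of 43.3% GC. The Reln promoter held 1 E-box and 6 copies of the GC box GGGCGG, counted on both strands, and its GC content of 80.7% was higher than that of 99.2% of all promoters. The Ebf3 promoter held no E-box, 3 GC boxes and 1 match to CCCNNGGG, the core recognised by EBF proteins, of which the Reln promoter held 2. Trp73 had 2 listed promoters. The upstream one, at chr4:154139826-154140125, held 1 E-box, and the internal one, at chr4:154097124-154097423, held 2. The Lhx1 promoter, at chr11:84525485-84525784, held none of the motifs searched, which included TAATTA and TATAAA. Of 32851 promoters of the same length, 72.3% held CANNTG, 16.3% CAGCTG, 35.7% GGGCGG, 13.7% CCCNNGGG, 13.6% TATAAA and 5.29% TAATTA, and the median GC content was 52.7%. CAGCTG is itself an E-box and was counted in both. A match describes the letters and not a bound site.

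Reln encodes reelin, the secreted glycoprotein by which these cells are best known. It maps to chromosome 5 from 21884454 to 22344702 on the minus strand. It measured 366, 483, 516, 363 and 579 CPM in the controls, replicates 1 to 5, and 517, 667, 844, 598 and 1077 CPM in the Dot1l-cKO samples in that order. Every Dot1l-cKO sample was above the control with its number, but the groups overlapped, since control replicate 5 was above Dot1l-cKO replicate 1. Means were 461.4 ± 94.9 CPM and 740.5 ± 223 CPM (mean ± SD over 5 samples per group), for a log2 fold change of 0.68 ± 0.20 (SE) with a 95% interval of 0.24 to 1.13 (edgeR, adjusted p = 0.0704). With the replicate number as a block in edgeR, the log2 fold change was 0.66 and the adjusted p was 0.00412, so Reln was DE in that fit. There 6 of the 8 genes and 6.51% of all genes were called increased. The block assumes that the numbers pair the samples, which correlations bore out for replicates 1 and 4 only. By DESeq2 Reln was DE as well (0.66, adjusted p = 0.0233), as 6 of the 8 genes and 6.64% of all genes were increased by that tool. Without Dot1l-cKO replicate 1, the lowest of its group, the adjusted p was 0.0490 and the log2 fold change was 0.79. Over all alternatives the adjusted p ran from 0.00412 to 0.223.

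Calb2 encodes calretinin, a cytoplasmic calcium-binding protein found in Cajal-Retzius cells and also in some interneurons. It had the largest fold change of the 8 genes. It measured 10.5, 23.4, 11.9, 7.46 and 7.07 CPM in the controls, replicates 1 to 5. The Dot1l-cKO samples, in that order, had 34.7, 38.7, 38.6, 22.7 and 24.4 CPM. Control replicate 2 stood high in its group and just above Dot1l-cKO replicate 4, and apart from that pair no values of the groups crossed. Means were 12.1 ± 6.64 and 31.8 ± 7.74 CPM (mean ± SD over 5 samples per group). The log2 fold change was 1.40 ± 0.31 (SE), a 2.64-fold rise with a 95% interval of 1.63 to 4.25 (edgeR, adjusted p = 0.0214). Leaving out control replicate 1 or 4, or Dot1l-cKO replicate 1 or 3, raised that adjusted p to between 0.0520 and 0.0643. Calb2 maps to chromosome 8 from 110137502 to 110168210 on the minus strand.

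Ebf2 and Ebf3 encode paralogous transcription factors of the early B-cell factor family, both known in early-born neurons of the marginal zone. Ebf2, on chromosome 14 from 67233292 to 67430918 (plus strand), measured 7.62, 5.10, 4.98, 5.25 and 7.52 CPM in the controls, replicates 1 to 5. The Dot1l-cKO samples, in that order, had 11.1, 9.52, 13.7, 14.8 and 13.6 CPM. The groups did not overlap, and the lowest Dot1l-cKO value was replicate 2. The mean went from 6.10 ± 1.35 to 12.5 ± 2.17 CPM (mean ± SD over 5 samples per group), for a log2 fold change of 1.04 ± 0.17 (SE; edgeR, adjusted p = 0.00442). Ebf3, on chromosome 7 from 137193673 to 137314445 on the minus strand, measured 11.5, 11.1, 11.6, 10.1 and 13.3 CPM in control and 21.1, 14.7, 19.2, 18.8 and 26.4 CPM in Dot1l-cKO, in the order of the replicates. Its groups did not overlap either, and Dot1l-cKO replicate 2 was again the lowest of its group. The mean went from 11.5 ± 1.18 to 20.0 ± 4.27 CPM (mean ± SD over 5 samples per group), for a log2 fold change of 0.80 ± 0.14 (SE; edgeR, adjusted p = 0.00656).

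Nhlh2 encodes a basic helix-loop-helix factor of differentiating neurons. It maps to chromosome 3 from 102010076 to 102015492, plus strand. It measured 33.6, 25.5, 29.4, 20.9 and 25.1 CPM in the controls, replicates 1 to 5, and 54.5, 46.5, 41.5, 33.9 and 44.7 CPM in the Dot1l-cKO samples in that order. The groups did not overlap by a narrow margin, between control replicate 1 and Dot1l-cKO replicate 4. Means were 26.9 ± 4.80 and 44.2 ± 7.50 CPM (mean ± SD over 5 samples per group), for a log2 fold change of 0.72 ± 0.14 (SE; edgeR, adjusted p = 0.0122). Ebf2, Ebf3 and Nhlh2 stayed DE whichever single sample was left out.

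Lhx5 and Lhx1 encode LIM homeodomain factors that are close relatives and both mark Cajal-Retzius cells, and cells of the thalamic eminence. Lhx5, on chromosome 5 from 120431699 to 120441223 (plus strand), measured 3.12, 7.30, 6.30, 3.74 and 3.87 CPM in the controls, replicates 1 to 5. The Dot1l-cKO samples, in that order, had 8.70, 8.95, 8.70, 7.89 and 8.80 CPM. The Dot1l-cKO samples lay close together and all above the controls, among which replicates 2 and 3, the 2 with header number 57, were the highest. Means were 4.87 ± 1.82 and 8.61 ± 0.415 CPM (mean ± SD over 5 samples per group), for a log2 fold change of 0.82 ± 0.22 (SE) with a 95% interval of 0.34 to 1.30 (edgeR, adjusted p = 0.0443). This call rested on single samples. It was kept only without control replicate 2 (adjusted p = 0.0134) or control replicate 3 (adjusted p = 0.0301), and leaving out any of the other 8 samples raised the adjusted p above the threshold, at most to 0.107. With no low-count filter it was 0.0541. Lhx1, on chromosome 11 from 84518284 to 84525535 on the minus strand, was the scarcest of the 8 with 74 to 250 reads per sample. It measured 1.97, 1.65, 1.77, 1.95 and 2.50 CPM in control replicates and 3.15, 1.28, 2.40, 2.73 and 4.03 CPM in Dot1l-cKO replicates, with the lowest value of all in Dot1l-cKO replicate 2. Means were 1.97 ± 0.327 and 2.72 ± 1.01 CPM (mean ± SD over 5 samples per group), for a log2 fold change of 0.47 with a 95% interval of -0.10 to 1.03 (edgeR, adjusted p = 0.350).

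Trp73 encodes p73, a transcription factor of the p53 family that hem-derived Cajal-Retzius cells express. It maps to chromosome 4 from 154056253 to 154140208 on the minus strand. It measured 15.4, 15.7, 23.7, 16.9 and 15.8 CPM in the controls, replicates 1 to 5, and 23.5, 16.3, 26.0, 21.8 and 38.2 CPM in the Dot1l-cKO samples in that order. Each Dot1l-cKO sample was above the control of its number, but control replicate 3 lay among the Dot1l-cKO values. Means were 17.5 ± 3.53 and 25.2 ± 8.12 CPM (mean ± SD over 5 samples per group), for a log2 fold change of 0.52 with a 95% interval of 0.07 to 0.98 (edgeR, adjusted p = 0.175). Meningeal genes moved across the same samples. Their summed level, over 8 genes led by Col1a2 and Col1a1, was highest in control replicate 3 and Dot1l-cKO replicate 5, at 452 and 417 CPM, against 29.0 to 174 CPM in the other 8 samples. The part of this in the Trp73 values was not tested.

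**Figure D1:**
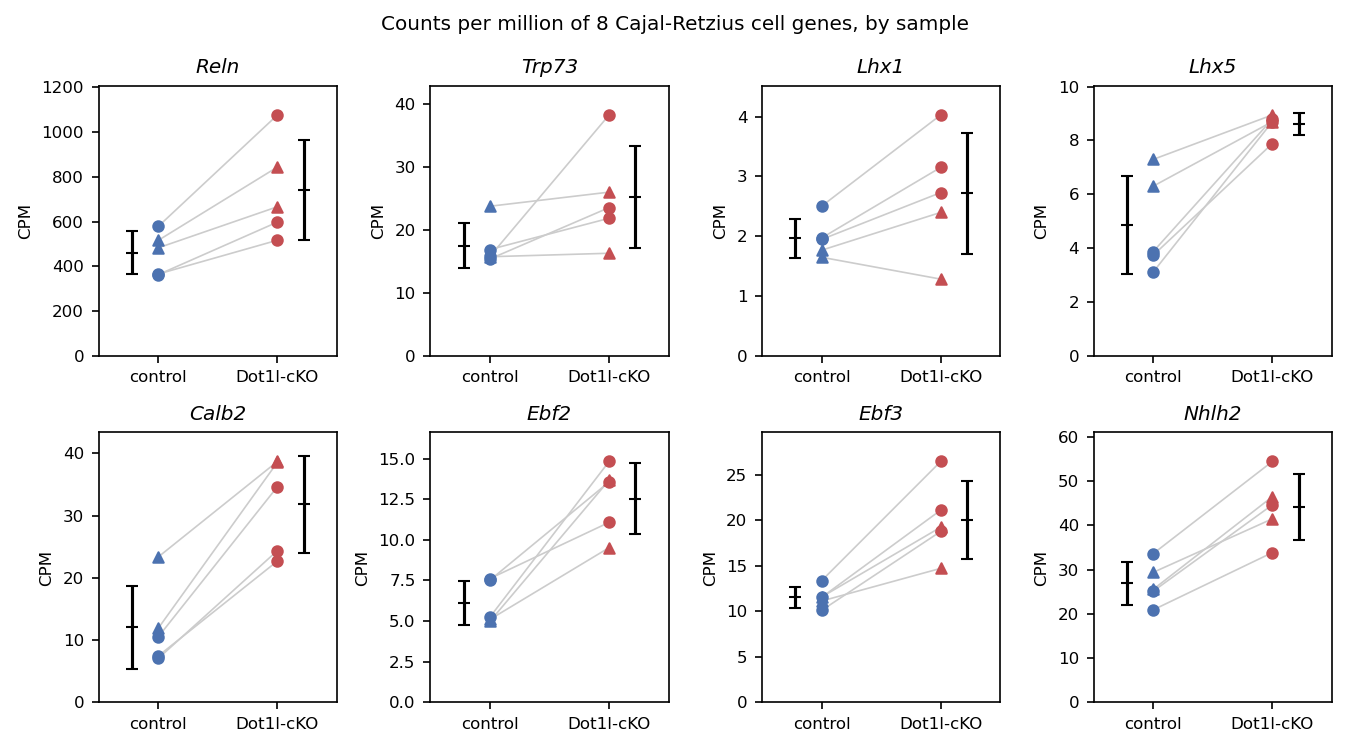
CPM of each of the 8 genes on a linear axis, by genotype. Points are samples, triangles those with header number 57 and circles the others, grey lines join samples with the same replicate number, and bars beside the points give the mean ± SD (n = 5). Only Lhx1 in replicate 2 goes down along its line, and the groups do not overlap for Lhx5, Ebf2, Ebf3 and Nhlh2.

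Across the 8 genes, 4 had every Dot1l-cKO sample above every control sample, which held for 6.17% of all genes tested. In 7 of the 8, every Dot1l-cKO sample was above the control with the same number, against 13.2% of all genes tested, and Lhx1 was so in 4 of 5 pairs. The Dot1l-cKO samples were not ranked alike by the 8 genes. Replicate 5 was the highest for Reln, Trp73, Lhx1 and Ebf3, replicate 2 was the lowest for Trp73, Lhx1, Ebf2 and Ebf3, and replicate 4 was the lowest for Lhx5, Calb2 and Nhlh2. Summed over the 8 genes, CPM were 429.4 to 653.9 in control and 673.8 to 1237 in Dot1l-cKO, a sum made up mostly of Reln.

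Levels were compared between genes as CPM per kb of exon. In control, Reln was the most abundant at 19.4 (range 15.3 to 24.4, n = 5) and was above 84.2% of the genes tested. Calb2 followed at 6.92 (4.06 to 13.4), Nhlh2 at 4.97 (3.86 to 6.20) and Trp73 at 3.16 (2.78 to 4.29), whose ranges overlapped from one gene to the next. Below them came Lhx5 at 1.81 (1.16 to 2.71), Ebf3 at 1.25 (1.09 to 1.45) and Ebf2 at 0.880 (0.720 to 1.10), again with overlapping neighbours. Lhx1 was last at 0.483 (0.405 to 0.614), above only 20.6% of the genes tested. The ranges separated Reln from Calb2, Trp73 from Lhx5, and Ebf2 from Lhx1. In Dot1l-cKO the means kept this order, from 31.2 CPM per kb for Reln and 18.3 for Calb2 to 0.667 for Lhx1. With the longest coding transcript as the length, chosen after the data were seen, Ebf3 (2.31) came before Lhx5 (1.81) in control and the rest of the order was the same.

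**Figure D2:**
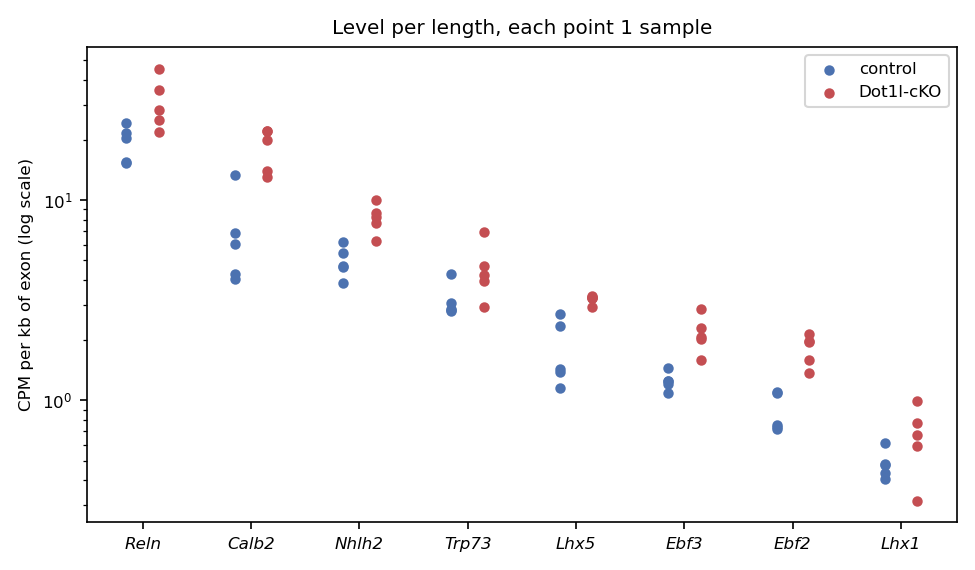
CPM per kb of exon of the 8 genes on a log axis, in the order of the control means, with 1 point per sample (5 control and 5 Dot1l-cKO). Reln lies highest in both groups, between 15.3 and 24.4 in control, and Lhx1 lowest, between 0.405 and 0.614 in control.

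The difference between the genotypes had the same sign for all 8 genes within both sets of libraries. In the 4 samples with header number 57, log2 fold changes were 1.22 for Ebf2, 1.15 for Calb2, 0.70 for Nhlh2, 0.61 for Reln, 0.60 for Ebf3, 0.40 for Lhx5, 0.13 for Lhx1 and 0.12 for Trp73. None of the 8 was DE there, with edgeR adjusted p-values from 0.145 to 0.887 (5 of the 8 were increased at an unadjusted p under 0.05, against 8.44% of all genes), and only 1 gene of 17202 was called increased (0.00581%). In the other 6 samples, Calb2 (1.70, adjusted p = 0.00763), Lhx5 (1.24, adjusted p = 0.00821), Ebf3 (0.92, adjusted p = 0.0248) and Ebf2 (0.95, adjusted p = 0.0309) were DE by edgeR, where 3.41% of genes were called increased. Nhlh2 was at 0.74 there with an adjusted p of 0.0912. Lhx5 differed most between the sets on the log2 scale. Its control mean was 6.80 CPM with header number 57 and 3.58 CPM without, while its Dot1l-cKO means were 8.82 and 8.46 CPM. The interaction of genotype and library set for Lhx5 was 0.86 on the log2 scale with a standard error of 0.21 and an unadjusted edgeR p of 0.00219, which did not pass over all genes (adjusted p = 0.728). No gene of the 17039 passed that interaction test, and 6.29% had an unadjusted p under 0.05. The interaction was added after the data were seen. With the library set as a term in edgeR, 5 of the 8 genes were called increased, against 7.49% of all genes tested.

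**Figure D3:**
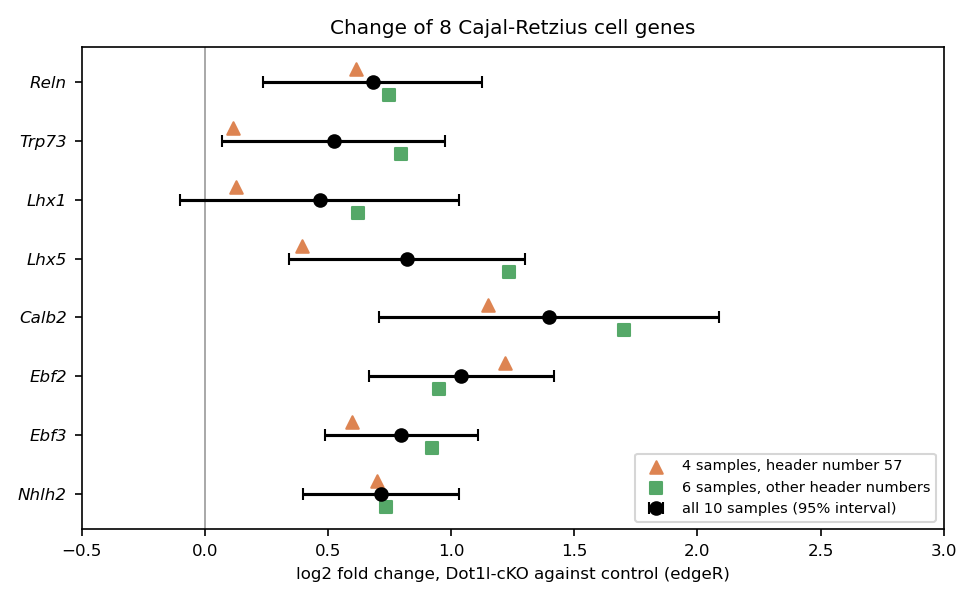
Log2 fold change of Dot1l-cKO against control for the 8 genes by edgeR. Black points with 95% intervals are from all 10 samples, triangles from the 4 samples with header number 57 and squares from the other 6, shown without intervals. All values lie above 0, and only the interval of Lhx1 reaches below 0.

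Paralogs and products of the same cells were compared as ratios within a sample, which do not depend on library scaling. The log2 ratio of Lhx5 to Lhx1 was 1.24 ± 0.70 in control and 1.75 ± 0.64 in Dot1l-cKO (SD, 5 samples per group), a difference of 0.51 (exact two-sided permutation test, p = 0.278, 0.417 adjusted over the 3 ratios). The ratio was higher in Dot1l-cKO in all 5 same-numbered pairs, for which an exact sign-flip test gave p = 0.0625, the smallest that 5 pairs can give, so this test could not pass. The 5 paired differences ran from 0.03 to 0.80 with a mean of 0.51 ± 0.29 (SD). The log2 ratio of Ebf3 to Ebf2 was 0.94 ± 0.24 in control and 0.67 ± 0.27 in Dot1l-cKO (SD, 5 samples per group), a difference of -0.27 (exact two-sided permutation test, p = 0.151, adjusted 0.417). The log2 ratio of Reln to Trp73 was 4.72 ± 0.34 in control and 4.88 ± 0.33 in Dot1l-cKO (SD, 5 samples per group), a difference of 0.17 (exact two-sided permutation test, p = 0.421, adjusted 0.421). With 5 against 5 the smallest p of this test is 0.00794, and none of the 3 ratios passed it.

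The genes whose values followed each of the 8 most closely over the 10 samples were found by the root mean square difference of log2 CPM, each gene centred on its own mean, among 13764 genes whose mean log2 CPM was not below 0. All genes shared the same 10 libraries, so these are descriptions. Samples of both genotypes enter the measure, so genes close to a gene that rose were in part selected for having risen too. For Calb2 the 3 closest were Rftn1, Hopx and Cemip (0.305, 0.309 and 0.342), which rose with log2 fold changes of 1.31, 1.10 and 1.62 (edgeR adjusted p = 0.00310, 0.0153 and 0.000395). Among the 8, Lhx5 was 25th of 13763 in the order for Calb2 and Nhlh2 was 227th. For Reln the closest were Itgam, Gdf10 and Tlr2 (0.173 to 0.202), none of them DE, with Ebf3 67th and Trp73 195th. Itgam and Tlr2 are genes of microglia and other myeloid cells. Csf1, Gusb and Tep1 were closest to Trp73 (0.132 to 0.154), and Daam2, Pced1b and Prickle1 to Lhx1 (0.105 to 0.169), and none of these 6 was DE. Ramp3, BC034090 and Etv4 were closest to Lhx5 (0.166 to 0.203), of which Ramp3 rose with a log2 fold change of 0.86 (edgeR adjusted p = 0.0231). Tmem150c, Trem2 and Pkib were closest to Ebf2 (0.189 to 0.203), Aqp11, Larp6 and D130043K22Rik to Ebf3 (0.141 to 0.151), and Pkp2, Il1rap and Dcaf12l1 to Nhlh2 (0.125 to 0.129). All 3 genes closest to Ebf2, all 3 closest to Nhlh2, and Larp6 and D130043K22Rik rose in Dot1l-cKO, among them Trem2, another microglial gene (log2 fold change 1.11, edgeR adjusted p = 0.00215). Ebf3 was 57th in the order for Ebf2. The orders were not mutual. Calb2 was 1141st in the order for Lhx5 and 12048th in that for Nhlh2. In the orders for Reln and Trp73 it was 12974th and 13427th, while in its own order Reln was 761st and Trp73 1877th. Lhx5 was 12338th in the order for Lhx1, and Lhx1 was 9942nd in that for Lhx5.

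Of 14 other genes known in Cajal-Retzius cells, 2 rose, 1 fell and 11 did not pass the test, with a median log2 fold change of 0.26. Over all genes tested, 5.67% were called increased and 1.44% decreased, and the median was -0.01. Ndnf, which encodes a secreted neurotrophic factor and marks neurons of the marginal zone, rose from 7.04 ± 1.54 to 21.5 ± 5.11 CPM (mean ± SD over 5 samples per group), for a log2 fold change of 1.61 with an edgeR adjusted p of 0.000660. Its values were 5.37 to 9.30 CPM in control and 16.4 to 27.6 CPM in Dot1l-cKO. Edil3, an extracellular matrix protein gene, rose from 66.1 ± 4.78 to 92.1 ± 5.99 CPM (0.48, adjusted p = 0.00241). Ackr3, a scavenging receptor of the chemokine Cxcl12 that interneurons also express, fell from 26.8 ± 1.49 to 18.0 ± 2.90 CPM (-0.57, adjusted p = 0.00808). The paralogs of members were among the 11. Nhlh1 had a log2 fold change of 0.55 (adjusted p = 0.0729; 0.0349 by DESeq2), with 20.5 to 26.8 CPM in control and 23.3 to 41.7 CPM in Dot1l-cKO. Ebf1, which striatal neurons express too, was at -0.26 (adjusted p = 0.787) with controls spread from 6.99 to 35.6 CPM. Its library sets went opposite ways. Replicates 2 and 3, with header number 57, were at 8.02 and 6.99 CPM in control and 11.9 and 22.6 CPM in Dot1l-cKO. The other samples were at 26.5 to 35.6 CPM in control and 12.8 to 20.2 CPM in Dot1l-cKO. In all 10 samples and within both library sets, Ndnf and Edil3 were higher and Ackr3 was lower in Dot1l-cKO. Spock1 was at -0.71 (adjusted p = 0.171) and was called decreased with the replicate block (-0.70, adjusted p = 0.00848). Tbr1 and Eomes, shared with other glutamatergic cells of the cortex, were at 0.20 and 0.03.

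Of 7 genes known to restrain the hem or Cajal-Retzius fate, 3 fell and none rose, with a median log2 fold change of -0.36. Over all genes tested, 1.44% were called decreased. Lhx2, the LIM homeodomain selector of cortical identity, measured 262 to 327 CPM in 4 controls and 234 CPM in control replicate 5, and 111 to 138 CPM in Dot1l-cKO, a log2 fold change of -1.21 (edgeR adjusted p = 0.000119). Dmrt3 and Pax6, transcription factor genes of cortical progenitors, had log2 fold changes of -0.70 and -0.36 (adjusted p = 0.0449 and 0.0294). Dmrt3 kept its call only without control replicate 5 or Dot1l-cKO replicate 5. Pax6 kept its call only without control replicate 3, control replicate 5 or Dot1l-cKO replicate 4. Within the 6 samples without header number 57 they had adjusted p-values of 0.210 and 0.230. Over all single omissions the adjusted p rose to at most 0.0949 for Dmrt3 and 0.0801 for Pax6. Emx2 was at -0.52 and Hes1 at -0.31, neither of them DE. Dmrta2, the only gene of the list above 0, was at 0.11 (edgeR adjusted p = 0.802).

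Of 14 genes of the hem and the other Cajal-Retzius sources, 13 were tested and none was DE by edgeR, DESeq2 or limma (2 had an unadjusted edgeR p under 0.05), with a median log2 fold change of 0.42. These signalling genes, among them Wnt3a, Wnt2b, Wnt8b and Rspo2, varied widely between samples of a group. Their sum was 65.8 to 114.7 CPM in 4 controls and 190 CPM in control replicate 3, and 77.8 to 204 CPM in Dot1l-cKO with the highest value in replicate 5. These are the samples in which the meningeal sum was highest too. Wnt8b, a hem Wnt ligand gene, had a log2 fold change of 0.90 (adjusted p = 0.364) and Wnt3a, needed for the hippocampus that the hem organises, one of 0.59 (adjusted p = 0.673). Of the 13 tested, 9 were above 0 and 4 below. The 4 were Lmx1a (-0.43), Bmp7 (-0.17), Bmp4 (-0.07) and Dbx1 (-1.27). The 2 with an unadjusted p under 0.05 went opposite ways, Wnt5a at 0.61 and Dbx1, which was scarce at 0.42 CPM in control. Gdf7 was too low to be tested.

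Of 13 genes of the pathway that reelin acts through, none was DE by edgeR, DESeq2 or limma (0 had an unadjusted edgeR p under 0.05), with a median log2 fold change of -0.02 and values from -0.23 to 0.16. The receptor genes Vldlr and Lrp8 were at -0.04 and -0.23, and Dab1, whose product is the adaptor phosphorylated on reelin binding, was at -0.17 (edgeR adjusted p = 0.901, 0.248 and 0.637). Summed CPM of the 13 were 1991 to 2117 in control and 1881 to 2103 in Dot1l-cKO.

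**Figure D4:**
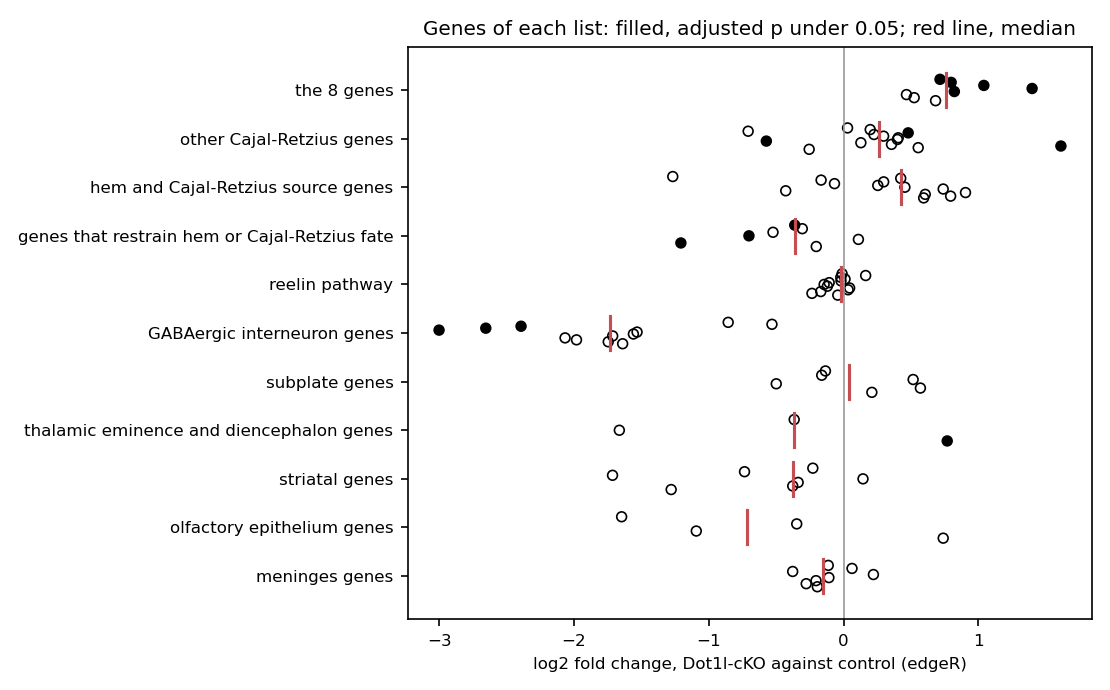
Log2 fold change by edgeR of each tested gene in 11 lists, the 8 genes in the top row. Filled points are DE, open points did not pass, and the red line is the median of a list, 0.76 for the 8 genes and -1.73 for the GABAergic interneuron genes.

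Other cells that express some of the 8 genes could be present in the dissected tissue, so their markers were measured. All 12 genes of GABAergic interneurons, among which Calb2-expressing cells occur, were lower in Dot1l-cKO, with a median log2 fold change of -1.73. Lhx6, Sst and Npy fell (-3.00, -2.65 and -2.39, edgeR adjusted p = 0.00187, 0.0275 and 0.0274). Of all genes tested, 48.8% had a log2 fold change above 0, 5.67% were called increased and 1.44% decreased. Sst and Npy kept their calls only without control replicate 2 or 3 or Dot1l-cKO replicate 4 or 5, and the adjusted p otherwise rose to at most 0.0665 and 0.0656. The sum of the 12 was 102 to 448 CPM in control and 17.0 to 152 CPM in Dot1l-cKO, and its mean was 303 against 89.1 CPM. Sp8 and Htr3a changed least of the 12, at -0.53 and -0.86 (edgeR adjusted p = 0.265 and 0.0561). Of 8 genes of the thalamic eminence and diencephalon, only 3 were high enough to be tested and 1 of these, Lhx9, rose (27.8 ± 7.42 to 47.4 ± 3.56 CPM, SD, 5 samples per group, log2 fold change 0.77, adjusted p = 0.0111). The other 7 were at or below 1.09 CPM on average in both groups, and all 7 were lower on average in Dot1l-cKO. Olig3 and Irx3, which were tested, had log2 fold changes of -1.66 and -0.37 (edgeR adjusted p = 0.351 and 0.572), and the median of those tested was -0.37. Gbx2, Shox2 and Olig3 were all highest in control replicate 1, Olig3 at 2.61 CPM. In the other controls they were at 0.016 to 0.088, 0.053 to 0.10 and 0.031 to 0.66 CPM. The Dot1l-cKO samples had 0 to 0.057, 0 to 0.094 and 0.15 to 0.26 CPM. Apart from control replicate 1, the groups thus overlapped for each of these genes, at very low levels. Without control replicate 1, the library with diencephalic transcripts, Lhx9 had a log2 fold change of 0.93 (adjusted p = 0.00128), and within the 6 samples without header number 57 it had one of 0.76 (adjusted p = 0.0979). Without that library, 3 of the 8 Cajal-Retzius genes were DE in place of 5, and the count was also 3 without control replicate 4 or without Dot1l-cKO replicate 3.

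In the other lists of outside tissue and of the subplate no gene passed by edgeR over all 10 samples with no block or covariate, and at an unadjusted p under 0.05 there were 0 meningeal, 1 striatal, 2 olfactory and 3 subplate genes. Alternatives did call some. Of the subplate genes, Lpar1 was lower in Dot1l-cKO by DESeq2, by limma, with DESeq2 size factors, with mitochondrial genes left out, with header number 57 as a term and with the replicate block (block: -0.49, adjusted p = 0.0351). Nr4a2 was higher with the replicate block (0.52, adjusted p = 0.0135) and with header number 57 as a term. Olig1 was lower by DESeq2, and within the 6 samples without header number 57 Ccn2 was higher. The 8 meningeal genes had a median log2 fold change of -0.15 and sums of 29.0 to 452 CPM in control and 36.8 to 417 CPM in Dot1l-cKO. The 7 striatal genes had a median of -0.38, with sums of 16.3 to 51.8 and 16.7 to 32.4 CPM. Of 6 genes listed for the olfactory epithelium, a tissue that expresses Ebf genes, 4 were tested, with a median of -0.72. Olig1, which is not specific to that tissue, was the lowest at -1.65, with Gnrh1 at -1.09 and Ebf4 at -0.35. The defining marker Omp went the other way, with a log2 fold change of 0.74 (edgeR adjusted p = 0.355). It was at 0.237 CPM in control and 0.401 CPM in Dot1l-cKO. Of 7 genes of the subplate, the other early-born cortical layer, 6 were tested, with a median of 0.04. Of 8 genes of the dorsal telencephalon, which check the dissection, Pax6 fell and the rest did not pass in that edgeR fit. Neurod2 was called increased with the replicate block (0.34, adjusted p = 0.0206), by DESeq2 and with header number 57 as a term, where Emx1 was called decreased. Their sums were 1717 to 1873 CPM in control and 1829 to 2151 CPM in Dot1l-cKO. No gene of any list was at 0 in all samples. How much any of these cell types contributed to the 8 genes was not tested.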

How the data were processed

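Stranded libraries of ribosomal-RNA-depleted total RNA were read as paired ends. Per the submitters' notes, the authors used Trim Galore 0.2.8, TopHat2 2.0.9 on mm10, HTSeq 0.6.0 in reverse-stranded mode with an Ensembl annotation, and DESeq2 1.6.1. The deposited count tables hold whole reads per gene. The deposited signal tables hold the same counts divided by a DESeq2 size factor per sample, and only an alternative used them. Replicates are called biological in the labels and controls were littermates. A header number (51, 57, 57, 90 and 154 for replicates 1 to 5) opens the column names of the normalised tables and is explained nowhere in the sources used here.

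Counts of 10 samples (5 per group) were tested in R 4.3.3 with edgeR 4.0.16 (filterByExpr, TMM, quasi-likelihood test, no covariate, Benjamini-Hochberg over 17039 genes). The standard error was the log2 fold change divided by the square root of F and is approximate. CPM use TMM library sizes, and intervals cover 95%. The test was tried on simulated counts. Ratios used a prior count of 0.5 and likeness one of 2. Of 43629 identifiers, 42548 had a symbol in the GENCODE release for this build that also gave coordinates and lengths, and the rest held 0.268% of counts. The list symbols Ctgf and Drd1a are older names of Ccn2 and Drd1 and were not counted. No replicates looked deposited more than once (chi-square per degree of freedom at least 30.81).

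The 8 genes and the 11 other lists were chosen with earlier results of these data known. Named genes were the 8, Dot1l, the called and defining genes of each list, and the 3 genes closest to each of the 8. Other genes of that rule are not reported here. Labels give both groups replicate numbers 1 to 5. The numbers were taken to pair the samples, which is an assumption from the labels. Deviations from group means correlated between same-numbered samples at 0.2291, 0.3486, 0.1454, 0.597 and 0.131. The highest correlation of either with a differently numbered sample of the other group was 0.1421, 0.35, 0.4464, 0.2937 and 0.4464. Only for replicates 1 and 4 was the same-numbered value the higher. Alternatives were DESeq2 1.42.0, its size factors, other low-count filters, the replicate block, header number 57 as a term, fits within each set of libraries, mitochondrial genes left out, limma 3.58.1 on the normalised counts, and each sample left out. Promoter motifs were counted on both strands. Exon-level reads were not analysed here. Reads carry no molecular identifiers, and the number of reads by itself speaks to counting error only. The edgeR standard errors and intervals also rest on the spread between samples of a group.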

Additional observations from a re-analysis of the deposited data

Results flagged for a closer look

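In 2 of the 22 groups of 5 samples examined, 1 sample lay farther from the rest than Dixon's 95% critical value allows. Chance gives about 1 such group in 20. Trp73 in control replicate 3 was at 23.7 CPM against 15.4 to 16.9 CPM in the other 4 controls, and the gap made up 0.786 of the range. This is also the control with the highest summed level of meningeal genes (452 CPM) and of hem and Cajal-Retzius source genes (190 CPM), and their part in the Trp73 value was not tested. Lhx5 in Dot1l-cKO replicate 4 was at 7.89 CPM against 8.70 to 8.95 CPM in the other 4 Dot1l-cKO samples, a gap of 0.775 of a narrow range, and it still lay above every control.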

How the results depend on the processing

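Among the 8 genes, the count of DE genes was 4 to 6 in every alternative over all 10 samples and within the 6 samples without header number 57, fell to 0 within the 4 samples with it, and was 3 to 5 with 1 sample left out (3 without control replicate 1, control replicate 4 or Dot1l-cKO replicate 3). For the interaction with the library set it was 0. With the replicate block the count was 6, and the block added calls of Reln, Spock1, Lpar1, Nr4a2 and Neurod2 and changed no other call among the 8 and the listed genes. Over all genes, 1995 were DE by DESeq2, 745 within the 6 samples, 1 within the 4 and 750 to 1357 with 1 sample left out (750 without control replicate 1 and 779 without control replicate 4), against 1212. Of the other listed genes, 10 were DE, and 16 by DESeq2, 19 with header number 57 as a term, 0 within the 4 samples and 6 to 15 with 1 sample left out (6 without control replicate 1 or Dot1l-cKO replicate 1). The log2 ratio of Ebf3 to Ebf2 differed by -0.61 within the 4 samples. The log2 fold change of Dot1l changed sign within the 4 samples (-0.37), by limma (-0.0058) and without Dot1l-cKO replicate 5, where it was -0.046 in a range of -0.046 to 0.25 over single omissions. Apart from the smaller numbers of samples, the causes of these shifts were not tested. Depth limits Lhx1 most, with 74 to 250 reads per sample.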
